A study of Mus musculus with 6 samples.

Results

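The vascular integrins described here were 10 genes of the bulk RNA-Seq table of the DA: the α subunits *Itga1*, *Itga4*, *Itga5*, *Itga7*, *Itga8*, *Itga9*, and *Itgav* and the β subunits *Itgb1*, *Itgb3*, and *Itgb5*. They were picked by gene symbol from the 23997 genes listed, and 10 of 10 were found and had a mean of 1 FPKM or more, the filter used. FPKM counts the fragments of a gene relative to transcript length and to the fragments in the library, so levels of different genes can be compared. The DA was dissected from C57BL/6 embryos at E17.5 without treatment. The 3 control libraries are labelled WT (WT 0, WT 1, and WT 2, genotype wild type) and the 3 others are titled KO (KO 0, KO 1, and KO 2), with 2 floxed *Prdm6* alleles and *SM22-Cre* (genotype Prdm6f/f; SM22-Cre). The *SM22* promoter drives Cre-recombinase in smooth muscle cells (SMCs), so other cells of the vessel are not its target. The sources used here do not say whether a library is 1 embryo or a pool, or whether the WT embryos carried a floxed allele or Cre. The study's legend for the figure that includes this assay gives a larger number per group than the 3 libraries analysed here. P values therefore measure the spread between these libraries only.

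Integrins are receptors of an α and a β subunit that span the cell membrane. Outside the cell they bind fibronectin, laminins, collagens, and other matrix proteins, and inside they are tied to the actin cytoskeleton through talin, kindlins, vinculin, and other adhesion proteins. In the wall of an artery they anchor SMCs to the elastic and collagenous matrix and carry tension, and the α8 and α7 subunits, both partners of β1, are known from contractile smooth muscle.

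The targeted gene, *Prdm6*, was at 41.7, 48.4, and 19.8 FPKM in the WT libraries and 48.6, 27.1, and 15.4 FPKM in the KO libraries, and its log2 fold change was -0.32 ± 0.48 (standard error; limma, adjusted p = 0.833). The groups overlapped, with the highest value in KO 0, so *Prdm6* cannot test the labels here. The FPKM of a whole gene need not be lower when a part of it is removed. The cause of the overlap was not tested, and each direction below rests on the labels. By qRT-PCR, a separate assay, the study reported reduced *Prdm6* in the DA and aorta of *Prdm6* floxed *SM22-Cre* mice. Depth relative to WT 1, taken from the spacing of the lowest FPKM values, was between 0.928 and 1.19, and the total number of reads is unknown. The upper quartile of FPKM was between 10.37 and 10.77. The summed FPKM of all genes differed more, from 412183 in WT 1 to 818503 in KO 2. Genes listed at 0 numbered from 8338 in KO 2 to 11886 in WT 2. KO 0 held both *Xist* (81.0 FPKM) and the Y chromosome transcript *Ddx3y* (26.4 FPKM), whereas each other library held 1 of them at over 20 FPKM. The summed FPKM of 12 heart muscle genes was 1637 in WT 1 and 1913 in KO 2 and between 68.4 and 529 in the other libraries. The smooth muscle markers *Acta2* and *Myh11* were high in every library, at 396 to 2262 and 65.6 to 749 FPKM. The groups were compared with limma on log2(FPKM + 0.1) over the 12955 genes that passed the filter, P values were adjusted by the Benjamini-Hochberg method, and fold changes are on that scale.

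None of the 10 integrins passed an adjusted p of 0.05 in limma (0 of 10, against 0.00772% of all genes tested), and 3 of 10 had an unadjusted p under 0.05, against 8.28% of all genes. These 3, *Itga8*, *Itga9*, and *Itgb5*, were lower in KO (4.97% of all genes), and 0 were higher (3.31% of all genes). In 4 of 10, these 3 and *Itgav*, the 3 libraries of one group lay wholly beyond those of the other, against 16.1% of all genes tested, and *Itgav* was the only one of the 4 that was higher in KO (3 lower, against 7.84%, and 1 higher, against 8.21% of all genes). The other 6 overlapped, among them *Itgb1*, the common partner of most of these α subunits, and *Itga7*. The median log2 fold change of the 10 was 0.0089, beside 0.072 over all genes tested, and it was between -0.17 (without WT 2) and 0.056 (without KO 0) with a library left out. *Itga8*, *Itga9*, and *Itgb5* each kept an unadjusted p under 0.05 with any library left out, and also without WT 1 and KO 2 together, a choice made after the data were seen.

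**Figure D1:**
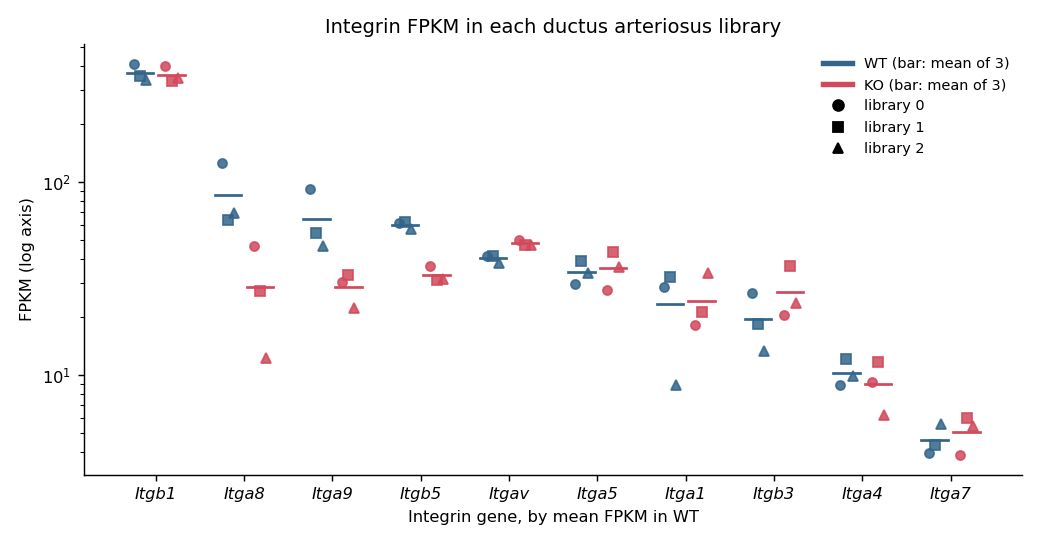
FPKM of the 10 integrin genes (log axis) in each library, with genes ordered by their mean in WT, blue for WT and red for KO, a symbol for each library number, and bars for the mean of 3 libraries. *Itga8*, *Itga9*, and *Itgb5* lay lower in every KO library than in any WT library, *Itgav* lay slightly higher, and *Itgb1* had means of 369 and 361 FPKM.

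*Itga8* encodes the α8 subunit, which pairs with β1 to bind nephronectin, fibronectin, and tenascin-C. On GRCm38 it spans chromosome 2 from 12106632 to 12301922 on the minus strand. Expression was at 126, 63.9, and 68.9 FPKM in WT 0, WT 1, and WT 2 and 46.6, 27.1, and 12.3 FPKM in KO 0, KO 1, and KO 2. All 3 KO libraries were below all 3 WT libraries, and KO 2 was the lowest of the 6. The mean was 86.2 ± 34.4 FPKM (SD, n = 3) in WT and 28.7 ± 17.2 FPKM (SD, n = 3) in KO. This was a log2 fold change of -1.71 (standard error 0.48, 95% confidence interval from -2.84 to -0.59, unadjusted p = 0.00816, adjusted p = 0.502 from limma), or 0.305 times the WT level. By unadjusted p it stood at place 209 of the 12955 genes. A two-sided exact permutation test gave p = 0.1, the smallest that 3 libraries against 3 allow, and the same value for *Itga9*, *Itgb5*, and *Itgav*. In bulk tissue a smaller share of SMCs and less RNA of the gene per SMC cannot be told apart. The summed FPKM of the 15 smooth muscle contractile genes listed for this tissue was 4708 to 8492 in WT and 2031 to 4102 in KO. All 15 had a negative log2 fold change, against 5748 of the 12955 genes tested. An unadjusted p under 0.05 was found in 8 (0 adjusted), against 4.97% of all genes for the lower direction. The groups did not overlap in 9 of 15, against 7.84%. The list holds *Tagln* and *Myh11*, which the study names as most downregulated in its bulk RNA-Seq of the DA. The study called them by its own method. In the limma fit here neither passed, with an adjusted p of 0.591 for *Tagln* and 0.463 for *Myh11*. The part of the contractile genes in the level of *Itga8* was not tested.

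*Itga9* (chromosome 9 from 118606690 to 118901003) encodes the α9 subunit, which also pairs with β1 and binds tenascin-C. It was at 91.9, 54.4, and 46.4 FPKM in WT 0, WT 1, and WT 2 and at 30.2, 33.1, and 22.3 FPKM in KO 0, KO 1, and KO 2. The highest KO library was below the lowest WT library, with WT 0 well above the other two. The means were 64.3 ± 24.3 FPKM (SD, n = 3) and 28.5 ± 5.59 FPKM (SD, n = 3). Its log2 fold change was -1.13 (standard error 0.29, 95% confidence interval from -1.80 to -0.45, unadjusted p = 0.00513, adjusted p = 0.468 from limma).

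*Itgb5* (chromosome 16 from 33829665 to 33949338) encodes β5, a partner of αv in a receptor for vitronectin. Its FPKM was 61.1, 62.0, and 57.0 in WT 0, WT 1, and WT 2 and 36.8, 31.0, and 31.6 in KO 0, KO 1, and KO 2. The libraries of each group were close together and the groups lay far apart. At means of 60.0 ± 2.65 FPKM (SD, n = 3) and 33.1 ± 3.23 FPKM (SD, n = 3), the difference between groups exceeded the spread within them. The log2 fold change was -0.86 (standard error 0.16, 95% confidence interval from -1.23 to -0.48), the unadjusted p was 0.000816, and the adjusted p was 0.332 from limma, the lowest of the 10 integrins. By unadjusted p *Itgb5* was at place 30 of the 12955 genes.

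*Itgav* (chromosome 2 from 83724397 to 83806916), the α subunit that pairs with β5, β3, and β1, was at 41.6, 41.5, and 38.1 FPKM in WT 0, WT 1, and WT 2. In KO 0, KO 1, and KO 2 it was at 50.3, 47.0, and 47.3 FPKM. Every KO library was above every WT library, by a small step, with means of 40.4 ± 1.98 FPKM and 48.2 ± 1.85 FPKM (SD, n = 3 each). For *Itgav* the log2 fold change was 0.25 (standard error 0.15, 95% confidence interval from -0.10 to 0.61, unadjusted p = 0.138, adjusted p = 0.67 from limma). Thus *Itgav* and its partner *Itgb5* lay in opposite directions in these libraries. *Itgb3* (chromosome 11 from 104608000 to 104670476), the β subunit of the αv receptor of activated SMCs and endothelium and of the platelet fibrinogen receptor, was at 26.5, 18.3, and 13.4 FPKM in WT and 20.6, 36.9, and 23.5 FPKM in KO. These ranges overlapped, and the log2 fold change was 0.48 (standard error 0.33, 95% confidence interval from -0.28 to 1.24, adjusted p = 0.69 from limma). It was 0.24 without KO 1, 0.24 without WT 2, and 0.74 without WT 0.

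*Itgb1* (chromosome 8 from 128685654 to 128733200) was the most abundant integrin in every library, at 413, 355, and 340 FPKM in WT 0, WT 1, and WT 2 and 400.3, 334, and 348 FPKM in KO 0, KO 1, and KO 2. The groups overlapped throughout, at a log2 fold change of -0.032 (standard error 0.17, 95% confidence interval from -0.43 to 0.37, adjusted p = 0.963 from limma). The summed FPKM of its 12 α partners was 344, 289, and 256 in WT and 222, 241, and 237 in KO. *Itgb1* was therefore at 1.2, 1.23, and 1.33 times the sum of its partners in WT and at 1.81, 1.38, and 1.47 times in KO. The groups did not overlap, as for the FPKM of 16.1% of all genes tested, and WT 2 came close to KO 1. *Itga8* and *Itga9* are part of the denominator, so the ratio is not separate from their lower levels.

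*Itga7* (chromosome 10 from 128933818 to 128958282), whose product pairs with β1 as a laminin receptor of muscle, was the least abundant of the 10. It was at 3.93, 4.35, and 5.55 FPKM in WT 0, WT 1, and WT 2 and 3.83, 5.95, and 5.46 FPKM in KO 0, KO 1, and KO 2. The lowest and the highest library were both KO, and the groups overlapped. The log2 fold change was 0.13 (standard error 0.40, adjusted p = 0.929 from limma), and its 95% confidence interval, from -0.81 to 1.07, is wide. The value was 0.0044 without KO 1, 0.023 without WT 0, and 0.32 without KO 0. *Itga7* thus did not share the lower level in KO of *Itga8* or of the contractile genes, although its precision is low and the difference between *Itga7* and *Itga8* was not tested.

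Of the remaining α subunits, *Itga5* (chromosome 15 from 103344286 to 103366763), the subunit of the main fibronectin receptor, was at 29.7, 39.1, and 33.9 FPKM in WT and 27.5, 43.7, and 36.4 FPKM in KO. Its log2 fold change was 0.050 (standard error 0.23, 95% confidence interval from -0.47 to 0.57, adjusted p = 0.955 from limma). *Itga1* (chromosome 13 from 114953096 to 115101964), of the collagen IV and laminin receptor α1β1, was at 28.6, 32.1, and 8.91 FPKM in WT and 18.2, 21.1, and 33.6 FPKM in KO, so that WT 2 was far below the other libraries. The log2 fold change of *Itga1* was 0.22 (standard error 0.50, adjusted p = 0.897 from limma) and became -0.37 without WT 2. *Itga4* (chromosome 2 from 79255426 to 79333123), of the receptor for VCAM-1 and fibronectin that is known from neural crest and leukocytes, was at 8.82, 12.1, and 9.86 FPKM in WT and 9.16, 11.6, and 6.17 FPKM in KO. Its log2 fold change was -0.22 (standard error 0.33, adjusted p = 0.834 from limma). For these 3 genes the groups overlapped.

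Strand use in the counting is not given in the sources used here, so reads of overlapping genes could be shared. The gene in the table that overlaps *Itga8* in GENCODE vM21, the antisense *E030013I19Rik*, was at no more than 3.23 FPKM. *Pelo*, which lies within *Itga1* on the same strand, was at 6.56, 12.8, and 2.74 FPKM in WT and 4.68, 4.95, and 10.2 FPKM in KO. *Itgb1*, *Itgb3*, and *Itgb5* overlap 0 other genes there.

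**Figure D2:**
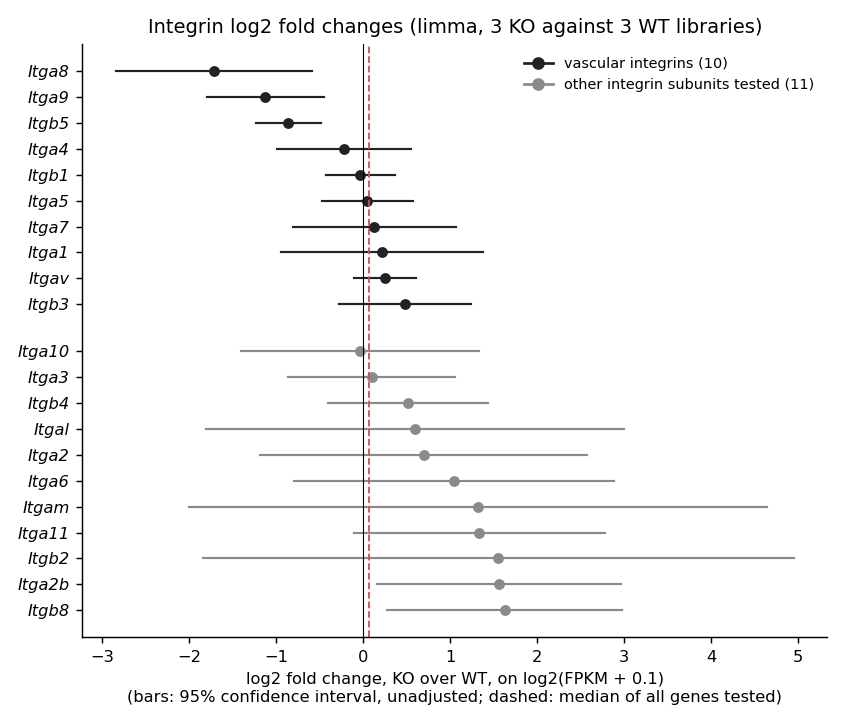
Log2 fold change of KO over WT from limma for the 10 integrins (black) and the 11 other integrin subunits tested (gray), with unadjusted 95% confidence intervals and a dashed line at the median of all genes tested, 0.072. The intervals of *Itga8*, *Itga9*, and *Itgb5* lie below 0, and 10 of the 11 other subunits lie above it.

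The order of the levels differed between the groups. In WT it ran *Itgb1* (369 FPKM), *Itga8* (86.2), *Itga9* (64.3), *Itgb5* (60.0), *Itgav* (40.4), *Itga5* (34.2), *Itga1* (23.2), *Itgb3* (19.4), *Itga4* (10.2), and *Itga7* (4.61) by mean FPKM. The library ranges of neighbors in this order overlapped from *Itga8* to *Itgb5* and from *Itgav* to *Itgb3*. In KO *Itgb1* (361 FPKM) was followed by *Itgav* (48.2) and *Itga5* (35.8), and then by *Itgb5* (33.1), *Itga8* (28.7), *Itga9* (28.5), *Itgb3* (27.0), and *Itga1* (24.3), whose ranges overlapped with those of their neighbors and of *Itga5*. *Itga4* (8.98) and *Itga7* (5.08) were the lowest in KO as well. Among all 18 α subunits in the table, *Itga8* was first in each WT library and at places 2, 4, and 6 in KO 0, KO 1, and KO 2. *Itgav* was at place 3 in each WT library and place 1 in KO 0 and KO 1, and it was at place 2 in KO 2, after *Itga6*.

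To describe this makeup without any scaling between libraries, each integrin was expressed as a share of the summed FPKM of all 18 α or all 8 β subunits of its own library. *Itga8* made up 36.3%, 21.3%, and 25.8% of the α transcripts in WT and 20.3%, 10.1%, and 4.80% in KO. KO 0 came close to WT 1, and KO 2 was far below. *Itga9* made up 26.5%, 18.1%, and 17.4% in WT and 13.2%, 12.3%, and 8.71% in KO. *Itgav* made up 12.01%, 13.8%, and 14.3% in WT and 21.9%, 17.4%, and 18.5% in KO. Of the β transcripts, *Itgb5* made up 11.9%, 13.7%, and 13.2% in WT and 7.75%, 7.05%, and 6.98% in KO. For all 4 the groups did not overlap, and the differences in mean share were -16.1, -9.31, 5.91, and -5.67 percentage points (two-sided exact permutation tests, p = 0.1 each, 0.25 after Benjamini-Hochberg adjustment over 10 integrins, with n = 3 against 3). These 4 are also the integrins whose FPKM did not overlap, so their shares are not separate support, and no smaller p was possible in these permutation tests. Shares are parts of one sum, so lower *Itga8* and *Itga9* raise the share of *Itgav* without any change in its own FPKM. The sum of the 18 α subunits was 347, 300, and 267 FPKM in WT and 229, 270, and 256 FPKM in KO. That of the 7 α integrins was 330, 247, and 212 FPKM in WT and 186, 190, and 163 FPKM in KO. With these 7 alone as the denominator, the difference for *Itgav* was 11.1 percentage points, which is not separate support. *Itgb1* was at 79.2% ± 1.22 (SD, n = 3) of the β transcripts in WT and 79.1% ± 4.51 (SD, n = 3) in KO. The shares of *Itga1*, *Itga4*, *Itga5*, *Itga7*, and *Itgb3* overlapped between groups.

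**Figure D3:**
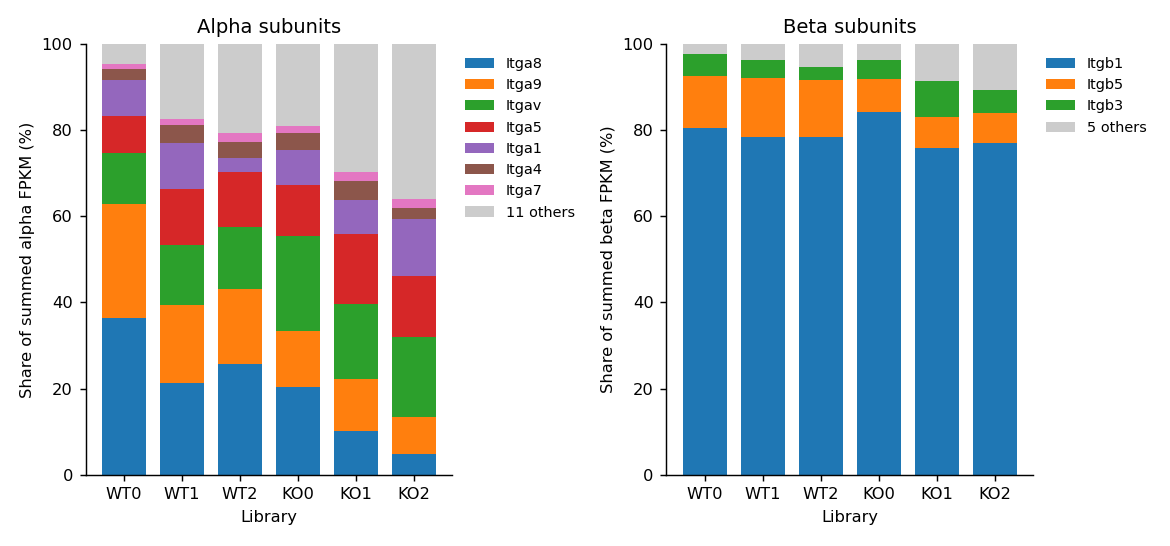
Share of each integrin, in percent, in the summed FPKM of 18 α subunits (left) and 8 β subunits (right) of each library, with the subunits outside the 10 in gray. From WT to KO the blocks of *Itga8*, *Itga9*, and *Itgb5* are smaller in every library, that of *Itgav* is larger, and that of *Itgb1* stays near 79% on average.

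The levels were then set beside those of the contractile genes, a step chosen after the data were seen. Per 1000 summed FPKM of the 15 contractile genes, *Itga8* was at 14.8, 13.2, and 14.6 in WT and 11.4, 9.05, and 6.04 in KO, still without overlap (exact permutation test, p = 0.1, n = 3 against 3). On this measure *Itga8* was nearly constant over the WT libraries. *Itga9* was at 10.8, 11.3, and 9.86 in WT and 7.36, 11.02, and 10.96 in KO, which overlapped. *Itgb5* was at 7.19, 12.8, and 12.1 in WT and 8.98, 10.3, and 15.6 in KO, which overlapped as well. *Itgav*, *Itgb1*, and *Itgb3* were higher in KO without overlap on this measure, whose denominator was itself lower in KO. *Itgb1*, for example, was at 48.6, 73.5, and 72.2 in WT and 97.6, 111, and 171 in KO per 1000 FPKM of the contractile genes. Against the median log2 level of the same genes instead of their sum, *Itga8* was at -1.13, -1.46, and -2.02 in WT and -1.18, -2.08, and -2.22 in KO, so that the lower relative level of *Itga8* depended on the way the list was summarized. *Itgb5* did not follow the contractile genes within WT: it was at 61.1 FPKM in WT 0, where their sum was 8492, and at 57.0 FPKM in WT 2, where it was 4708.

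**Figure D4:**
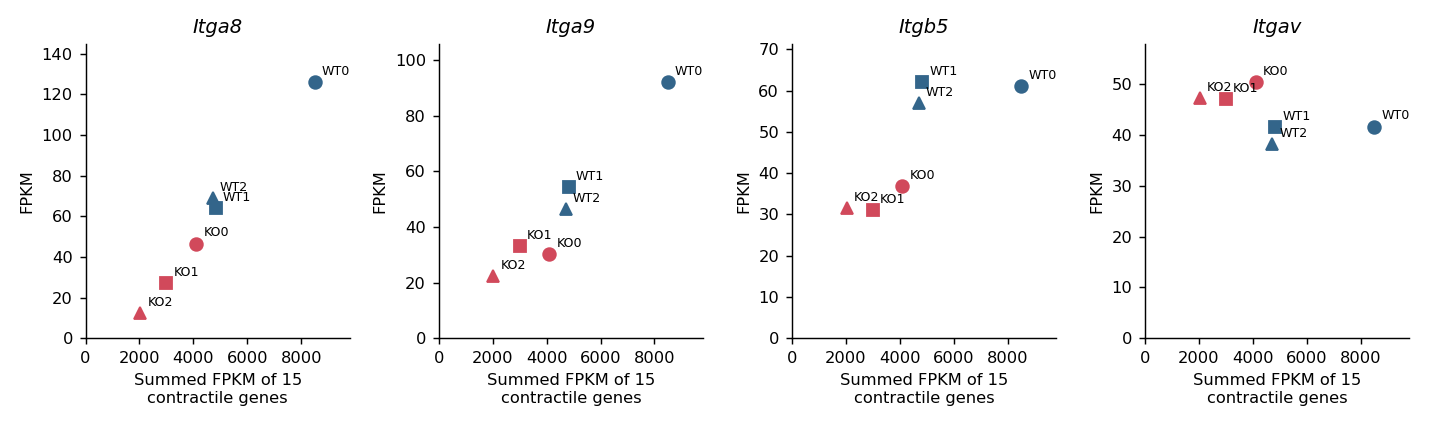
FPKM of *Itga8*, *Itga9*, *Itgb5*, and *Itgav* against the summed FPKM of 15 smooth muscle contractile genes in each library (blue, WT; red, KO; linear axes from 0). *Itga8* and *Itga9* are highest in WT 0, which has the highest contractile sum, whereas *Itgb5* is at 57.0 to 62.0 FPKM in all 3 WT libraries and *Itgav* is at 38.1 to 50.3 FPKM in all 6 libraries.

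Genes with a profile like that of *Itga8* were sought as those with the smallest root mean square difference in log2(FPKM + 0.1) over the 6 libraries, each profile less its own mean. The nearest 5 were *Lgr6* (0.17), *Prss57* (0.17), *Col24a1* (0.20), *Synpo2* (0.20), and *Cnn1* (0.22), of which *Synpo2* and *Cnn1* are in the contractile list. *Lgr6*, for example, was at 44.8, 28.7, and 24.0 FPKM in WT and 22.3, 10.3, and 4.59 FPKM in KO. For *Itga7* the nearest were *Tgfbr2* (0.052), *Mllt4* (0.063), *Nid1* (0.079), *Rreb1* (0.081), and *Ipo4* (0.091), with no contractile gene among them. Over 6 libraries such likeness is a description only.

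Promoter sequence is shown for the integrins with separated groups, as the 250 bases before the RefSeq start on GRCm38.p6, 5′ to 3′ on the strand of the gene. The window listed for *Itga9* precedes a start inside the gene and is not shown. *Itga8* is at chr2:12301945-12302194 (minus strand), *Itgav* at chr2:83724147-83724396 (plus strand), and *Itgb5* at chr16:33829415-33829664 (plus strand). Capitals mark GGGCGG on either strand, the core of a GC box.

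Itga8: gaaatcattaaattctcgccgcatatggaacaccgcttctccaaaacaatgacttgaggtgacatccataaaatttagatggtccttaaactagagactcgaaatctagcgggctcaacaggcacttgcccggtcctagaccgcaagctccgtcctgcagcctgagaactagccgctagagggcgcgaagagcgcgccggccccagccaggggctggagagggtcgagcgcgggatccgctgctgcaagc

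Itgav: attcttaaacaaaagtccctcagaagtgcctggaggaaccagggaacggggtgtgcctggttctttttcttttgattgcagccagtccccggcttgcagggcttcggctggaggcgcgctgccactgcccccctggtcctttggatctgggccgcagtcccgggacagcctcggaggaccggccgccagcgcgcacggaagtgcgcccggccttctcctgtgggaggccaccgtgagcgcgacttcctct

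Itgb5: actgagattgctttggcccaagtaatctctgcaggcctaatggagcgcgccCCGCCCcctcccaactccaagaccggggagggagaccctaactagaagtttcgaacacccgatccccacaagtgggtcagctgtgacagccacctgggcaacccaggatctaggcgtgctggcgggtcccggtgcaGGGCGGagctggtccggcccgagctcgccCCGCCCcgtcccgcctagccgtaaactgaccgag

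The *Itgb5* window held 3 copies of GGGCGG and those of *Itga8* and *Itgav* held 0, while 32.7% of 32851 promoter windows of the same length held at least 1. The CArG box of serum response factor, present in 1.47% of all windows, and TATAAA, present in 12.4%, were in none of the 3 on either strand, and the same holds for GGAATG (12.6%), the core of the M-CAT motif. These motifs did not overlap in the windows shown. GC content was 56.4% for *Itga8*, 64.4% for *Itgav*, and 65.2% for *Itgb5*, against a median of 52.4%. A motif match, or its lack in so short a window, is only a description.

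The 16 integrin subunits outside the 10 were low in most libraries, and 11 passed the filter. Of these 11, 0 passed an adjusted p of 0.05 in limma and 2, *Itgb8* and *Itga2b*, had an unadjusted p under 0.05, both higher in KO (3.31% of all genes tested). The median log2 fold change of the 11 was 1.04 (0.072 over all genes tested), but it was 0.27 without WT 0, 0.60 without KO 2, and 0.50 with a pseudocount of 1. Positive values were found in 10 of 11, against 7207 of all 12955 genes tested, and the libraries of the groups overlapped for each. Without WT 0, KO 1, or KO 2 the count of 2 was 0. *Itgb8*, whose product pairs with αv to activate TGF-β, was at 3.01, 3.85, and 11.7 FPKM in WT and 9.60, 16.8, and 25.9 FPKM in KO, and its log2 fold change was 1.63 ± 0.58 (standard error; limma, unadjusted p = 0.0243 and adjusted p = 0.564). *Itga2b*, the platelet α subunit, was at 1.65, 5.58, and 4.36 FPKM in WT and 5.39, 16.7, and 12.2 FPKM in KO (log2 fold change 1.56, standard error 0.60, adjusted p = 0.588 from limma). *Itga6*, a laminin receptor subunit of endothelium, epithelium, and Schwann cells, was at 3.71, 20.4, and 17.54 FPKM in WT and 8.88, 26.9, and 49.7 FPKM in KO. *Itga11*, a collagen receptor subunit of fibroblasts, was at 1.60, 7.48, and 2.50 FPKM in WT and 11.9, 7.14, and 6.10 FPKM in KO.

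Markers of other cells also differed between these libraries. The summed FPKM of 10 Schwann cell genes was 109 to 161 in WT and 186 to 243 in KO. Of the 10, 6 had an unadjusted p under 0.05, all higher in KO (3.31% of all genes tested). *Ncam1*, at a log2 fold change of 0.087, was the largest part of this sum in each library, and *S100b* was at -2.11. The sum of 10 neuron genes was 18.7 to 37.3 in WT and 43.4 to 78.8 in KO, and 3 of 7 tested had an unadjusted p under 0.05, all higher in KO (3.31% of all genes). That of 8 erythroid genes was 3864 to 7582 in WT and 4286 to 24360 in KO. For 10 endothelial genes the sums were 390 to 567 and 473 to 760, for 10 leukocyte genes 26.5 to 214 and 54.0 to 252, for 6 platelet and megakaryocyte genes 8.26 to 31.8 and 17.4 to 52.8, for 8 fibroblast genes 4223 to 7502 and 3391 to 6900, and for 8 epithelial and mesothelial genes 66.7 to 233 and 82.1 to 185. In these last 6 lists, erythroid included, the ranges overlapped. The part of these cells in the levels of *Itgb8*, *Itga2b*, and *Itga6* was not tested.

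Of the 30 integrin ligands listed, 29 passed the filter, 0 passed an adjusted p of 0.05 in limma, and 3 had an unadjusted p under 0.05, all lower in KO (4.97% of all genes tested). The median log2 fold change was -0.16, and it was 0.028 without KO 0 and -0.37 without KO 1. With quantile normalization it was -0.044, and without WT 1 and KO 2 together it was -0.037. Without WT 1 the count of 3 was 5, and without KO 0 it was 7. *Lamb2*, the laminin β2 chain, was at 64.2, 56.2, and 73.3 FPKM in WT and 44.8, 44.0, and 39.5 FPKM in KO, at a log2 fold change of -0.59 (standard error 0.17, adjusted p = 0.524 from limma). *Ctgf*, the matricellular connective tissue growth factor, was at 402, 232, and 148 FPKM in WT and 141, 92.8, and 54.6 FPKM in KO (log2 fold change -1.42, standard error 0.44, adjusted p = 0.54 from limma). *Fn1*, the fibronectin bound by α5β1, α8β1, and αv integrins, was at 1381, 1063, and 1044 FPKM in WT and 630.4, 967, and 759 FPKM in KO (log2 fold change -0.58, standard error 0.24, adjusted p = 0.6 from limma). In these 3 genes, picked by their small p, the groups did not overlap. Of the 29 ligands tested, 5 were without overlap, all lower in KO, against 16.1% of all genes tested in either direction and 7.84% lower. *Thbs1*, thrombospondin 1, was at 208, 89.4, and 109 FPKM in WT and 42.7, 81.5, and 93.3 FPKM in KO, which overlapped.

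Not all listed genes for ligands of α8β1 or α9β1 are given here. Besides *Fn1*, *Npnt* and *Tnc* are among them, and neither passed an adjusted p of 0.05 in limma. Only 1 of the 12955 genes tested did, so this does not show equal levels. *Npnt*, which encodes nephronectin, was at 4.12, 7.42, and 9.97 FPKM in WT and 7.48, 7.68, and 19.0 FPKM in KO (log2 fold change 0.61, standard error 0.49, adjusted p = 0.726 from limma). *Tnc*, which encodes tenascin-C, was at 76.1, 92.6, and 84.8 FPKM in WT and 63.9, 107, and 69.4 FPKM in KO (log2 fold change -0.11, standard error 0.22, adjusted p = 0.879 from limma). *Vtn*, the vitronectin bound by αvβ5, was listed at 0 in WT 0, WT 2, and KO 0, reached 3.08 FPKM in KO 1, and was not tested.

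Of the 30 genes of the intracellular adhesion complex, 29 passed the filter, 0 passed an adjusted p of 0.05 in limma, and 4 had an unadjusted p under 0.05, with 2 lower (4.97% of all genes tested) and 2 higher (3.31%) in KO. The count of 4 was 2 without WT 0 and 7 without WT 2. The median log2 fold change was -0.19, and it was nearer 0 without WT 0 (-0.090), KO 1 (-0.090), or KO 2 (-0.11) and with quantile normalization (-0.086). *Zyx*, which encodes the tension-sensitive adhesion protein zyxin, was at 72.8, 77.0, and 102 FPKM in WT and 47.5, 54.2, and 37.2 FPKM in KO, at a log2 fold change of -0.86 (standard error 0.21, adjusted p = 0.463 from limma). *Csrp1*, a LIM protein of smooth muscle, was at 491, 289, and 352 FPKM in WT and 271, 219, and 135 FPKM in KO. *Lims1*, which encodes the integrin-linked kinase partner PINCH-1, was at 15.9, 23.6, and 21.8 FPKM in WT and 32.4, 36.8, and 33.3 FPKM in KO, at a log2 fold change of 0.75 (standard error 0.21, adjusted p = 0.502 from limma). *Tns3*, which encodes tensin 3, was at 21.7, 33.1, and 27.3 FPKM in WT and 58.1, 41.2, and 38.5 FPKM in KO. In each of these 4 genes, picked by their small p, the groups did not overlap, *Zyx* and *Csrp1* being lower and *Lims1* and *Tns3* higher in KO. They were the only 4 of the 29 tested without overlap, against 16.1% of all genes tested (7.84% lower and 8.21% higher).

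**Figure D5:**
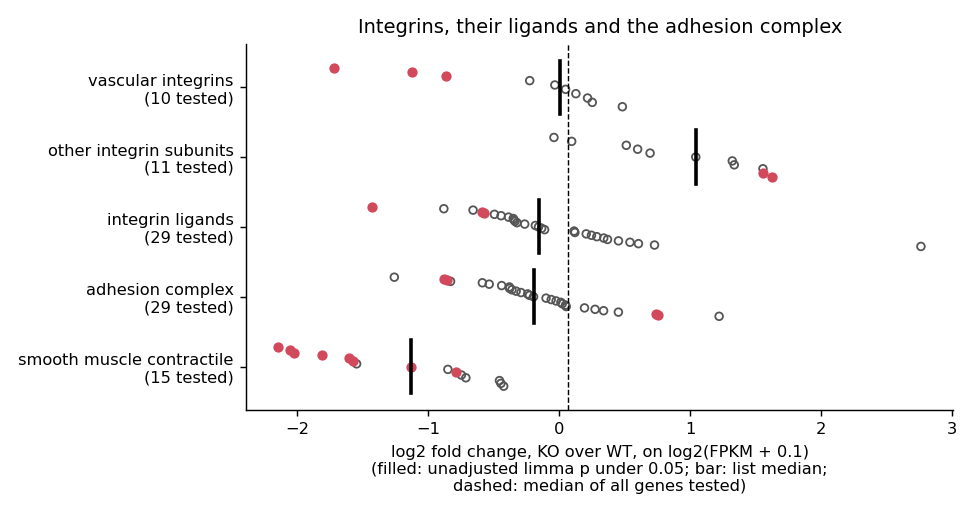
Log2 fold change of KO over WT for each gene tested in the integrin lists and in the contractile list, with filled points for an unadjusted limma p under 0.05, black bars for list medians, and a dashed line at the median of all genes tested, 0.072. The contractile genes all lie below 0 (median -1.13), the 10 integrins spread from -1.71 to 0.48, and the other integrin subunits lie mostly to the right.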

How the data were processed

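RNA of the DA was extracted with a miRNeasy Micro kit. The authors trimmed the reads to a base quality of at least Q30 and a length of at least 45, mapped them with TopHat2 (genome build mm10), and used Cufflinks for quantification. The deposited table holds FPKM, 1 value per gene and library. Versions, annotation, and any scaling between libraries are not given in the sources used here. FPKM values hold no counts, so count tests were not used, depth is known only in relative terms, and counting intervals cannot be given. Groups and library numbers came from the sample titles, and 0 columns were left unmatched.

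From the deposited FPKM, log2(FPKM + 0.1) of genes averaging 1 FPKM or more was fitted with limma 3.58.1 in R 4.3.3 (lmFit, eBayes with trend, two-sided tests, threshold 0.05), after a test on simulated data. Cuffdiff, named in the methods, needs aligned reads. Within-library shares were compared with exact permutation tests. Alternatives changed the pseudocount (1), the filter (a mean FPKM of 5, or none), the scaling (quantile normalization), the trend, the replicate block, and the libraries. Named were the 10 integrins, other subunits that were tested, the 4 genes of the ligand and of the adhesion list with the smallest unadjusted p, known ligands of a named integrin, and the 5 profiles nearest to *Itga7* and to *Itga8*. The members and lists were chosen with earlier results of these data known. Of the listed symbols, *Tns2* and *Epb42* were found under older names in the RefSeq table of GRCm38.p6. Positions are from GENCODE vM21 (GRCm38, the assembly of mm10) and promoters from RefSeq. Symbols of 8 of the 10 integrins matched a promoter, and *Itga7* and *Itgb3* did not.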

Additional observations from a re-analysis of the deposited data

How the results depend on the processing

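Over 13 alternatives 0 integrins were called, and 3 had an unadjusted p under 0.05 in each. These were *Itga8*, *Itga9*, and *Itgb5* each time. Log2 fold changes lay between -2.16 and -1.21 for *Itga8* (adjusted p from 0.27 to 0.871), from -1.33 to -0.84 for *Itga9* (0.329 to 0.871), from -0.94 to -0.76 for *Itgb5* (0.275 to 0.871), and from 0.21 to 0.35 for *Itgav* (0.571 to 0.871). *Itga7* was removed by the filter at 5 FPKM. Signs turned for *Itga1*, *Itga4*, *Itga5*, and *Itgb1*, none of which had an unadjusted p under 0.05. *Itgb1* was at 0.17 with quantile normalization, *Itga4* was at 0.14 without WT 1 and KO 2, and with a library left out the ranges were -0.37 to 0.55 for *Itga1*, -0.43 to 0.020 for *Itga4*, -0.10 to 0.23 for *Itga5*, and -0.11 to 0.051 for *Itgb1*. Without a sign change, these ranges were 0.24 to 0.74 for *Itgb3* and 0.0044 to 0.32 for *Itga7*. The difference in share of *Itgb1* was 3.35 percentage points with the 3 β integrins alone as the denominator, 0.55 without WT 1 and KO 2, and -2.68 to 1.47 with a library left out, and that of *Itga4* was -0.29 to 0.73. The cause was not tested. Leaving out WT 1 and KO 2 was chosen after seeing the data. The number of genes with an unadjusted p under 0.05 ranged from 0 to 3 for the other subunits (2 in the fit reported), from 2 to 7 for the ligands (3), and from 2 to 7 for the adhesion complex (4). The count of 4 integrins without overlap was 4 to 5 with a library left out, when the share of all genes without overlap was 24.0% to 28.9% (16.1% with all libraries). The replicate block, by the numbers in the titles, called 0 integrins, with a lowest adjusted p of 0.27. With the block the unadjusted p from limma was 0.000687 for *Itga8*, 0.00239 for *Itga9*, and 0.0029 for *Itgb5*. Without it these were 0.00816, 0.00513, and 0.000816. Deviations of libraries of the same number from their group means had r = 0.122, -0.0761, and -0.00878 across genes. Such values cannot exclude a pairing. The study's legend for this assay calls the controls littermates, but it does not say which WT library belongs with which KO library. The titles give only the number. Precision is limited by 3 libraries a group, with a median standard error of 0.41 over all genes tested.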
